A study of Mus musculus with 3 samples.

Results

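The loci of 8 early-response genes of the AP-1 family and its stress partner were examined in the chromatin of mouse forelimb mesenchymal progenitors (MPs). The genes were Fos, Fosb, Fosl1, Fosl2, Jun, Junb, Jund and Atf3. Every open chromatin region (OCR) that overlapped one of these genes or the 20 kb on either side was taken, which gave 94 of the 266531 regions found by merging the peak lists of the 3 libraries (overlap of at least 1 bp). The peak list at E12.5 held 80 of the peaks, that at E14.5 held 60 and that at E16.5 held 90. In the same order the whole lists held 190443, 102459 and 213613 peaks, so that the E14.5 list was the shortest throughout.

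The 3 single-nucleus ATAC-seq libraries came from tdTomato+ cells of embryos homozygous for both a CreERT2 insertion at Hic1 and a Cre-dependent tdTomato reporter at Rosa26 (Hic1CreERT2/CreERT2; Rosa26LSLtdTomato/tdTomato, on C57BL/6J), whose dams had been given 7.5 mg tamoxifen by gavage on embryonic day 10. Each of the stages E12.5, E14.5 and E16.5 gave 1 library, and every group carried the same alleles and the same tamoxifen, with no untreated embryos beside them. Whole forelimbs were digested with Dispase II at E12.5, forelimbs with Collagenase A, Pronase and DNase at E14.5, and a segment around the elbow with that second mixture at E16.5. Stage therefore cannot be told apart from library, from digestion at E12.5, or from segment and from the version of the peak-calling software at E16.5 (1.2.0 in the file header, against 1.0.1 in the others). The sort kept tdTomato+ cells and left out those stained for a panel of blood and endothelial surface markers (Ter119, F4/80, CD11b, CD31, CD117 and CD45). The cells carry the reporter because Hic1 was active in them or their ancestors when tamoxifen acted, and forelimbs of several embryos were pooled at E12.5. The paper describes pooled forelimb pairs at every stage for its RNA libraries, and says that cells for these libraries were sorted under the same conditions.

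The E12.5, E14.5 and E16.5 libraries held 8294, 20023 and 14048 nuclei, with 87048167, 204289151 and 413425059 cut sites in peaks. Between 151 and 401 barcodes were found in both libraries of a pair. Levels are given as cut sites per 1000000 cut sites in the autosomal regions called in all 3 libraries (CPM), with 95% intervals that cover counting error only. With 1 library a stage there was no test of a stage difference, and a threshold of 1.5-fold (0.58 on the log2 scale) was used to describe size. Summed window levels at lineage loci, in the order of the stages, were 1255, 992 and 890 CPM over 11 chondrogenic genes, 726, 735 and 769 CPM over 8 of 9 tenogenic genes, 552, 605 and 796 CPM over 9 fibrogenic genes and 1145, 1111 and 1207 CPM over 11 dermal fibrogenic genes. Those of cell types outside the sort were 125, 97.0 and 131 CPM over 4 endothelial genes, 67.7, 65.0 and 60.8 CPM over 2 of 3 blood genes, 63.8, 54.3 and 54.7 CPM over 3 of 4 epithelial genes and 134, 99.1 and 99.0 CPM over 4 myogenic genes. As counted, the chondrogenic sum thus moved down and the fibrogenic sum up with stage, and the endothelial sum was lowest at E14.5. These sums cover only the bases called as peaks in each library and were not scaled to called width. Single loci differed. From E12.5 to E16.5 the log2 ratio was above 0 at 4 of 11 chondrogenic and 7 of 9 fibrogenic genes, where the median of all genes was -0.0049. The endothelial gene Kdr had -0.06 into E14.5 and -0.29 out of it. Of these markers Tnmd, Cd53 and Krt5 had no autosomal region called in all 3 libraries. The part of these cells in the values below was not tested.

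AP-1 is a dimer of a FOS protein with a JUN protein, or of JUN proteins with each other or with ATF proteins, and it binds the letters TGACTCA or TGAGTCA. Fos, Fosb, Jun, Junb and Atf3 are immediate early genes: their transcription starts within minutes of growth factors, stretch or injury, from promoters that are already open, and serum response factor acts on several of them through a short element called the CArG box. Enzymatic dissociation of tissue is known to induce them too. Open chromatin at these genes is no measure of their transcript levels.

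CArG boxes were found in the 500 bases before the start of Fos and of Fosb, and in no other of the 7 genes with a RefSeq promoter entry (GRCm38.p6, all but Fosl1). These starts are those of RefSeq, and for Jund the RefSeq start lies 1210 bp upstream of the GENCODE gene start used for the windows, for Fosl2 671 bp downstream of it and for Atf3 at an internal start, so no match there says only that the letters are not in that window. Of 31365 promoters of that length, 2.68% held one. The stretches that hold the 2 boxes are shown because they are the textbook input of serum signals into these genes, read in the direction of transcription from 400 to 251 bases before the start, with the box in capitals. The box lay 309 to 300 bases before the start in Fos (chr12:85473490-85473639, plus strand) and 272 to 263 bases before it in Fosb (chr7:19310296-19310445, minus strand), and both stretches lay inside the merged promoter region of their gene.
Fos: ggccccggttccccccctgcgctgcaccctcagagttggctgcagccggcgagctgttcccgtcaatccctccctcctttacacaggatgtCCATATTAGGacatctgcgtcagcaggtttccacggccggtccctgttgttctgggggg
Fosb: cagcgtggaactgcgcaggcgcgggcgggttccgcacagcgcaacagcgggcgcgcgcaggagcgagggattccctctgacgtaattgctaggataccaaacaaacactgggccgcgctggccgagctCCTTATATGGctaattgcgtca

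AP-1 letters were absent from those 500 bases in all 7 genes (8.20% of all promoters held them), as was the CRE, TGACGTCA, which 1.96% held. In the 250 bases nearest the start, none of the 3 motifs was found in any of the 7, against 4.46% of 32817 promoters for AP-1, 1.55% for the CRE and 1.47% for the CArG box. These searches took exact letters on both strands, so near matches were not counted, and a site of one motif cannot be a site of another.

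Around the genes, AP-1 letters were found in the 300 bases around the centre of peaks outside promoters, which run past the ends of narrower peaks. Such letters stood in 9 of 49 member peaks at E12.5, 3 of 30 at E14.5 and 16 of 70 at E16.5, or 18.4%, 10% and 22.9%. The shares over all autosomal peaks outside promoters were 12.99%, 8.66% and 15.4% in the same order. Counting only letters inside the called peak, it was 7, 3 and 15 member peaks, and 11.8%, 7.81% and 14.3% of all peaks. Of these elements 6 are shown on the plus strand with 20 bases on either side of the site, chosen because their peaks were among the stronger ones or were called at E16.5 only, with the AP-1 letters in capitals.
Jund (chr8:70682311-70682357): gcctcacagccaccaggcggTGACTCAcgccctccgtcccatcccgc
Fosb (chr7:19327328-19327374): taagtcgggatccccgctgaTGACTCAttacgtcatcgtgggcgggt
Junb (chr8:84985323-84985369): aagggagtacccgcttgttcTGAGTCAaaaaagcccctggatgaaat
Atf3 (chr1:191193234-191193280): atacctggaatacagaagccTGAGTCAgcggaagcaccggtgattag
Fosl1 (chr19:5430030-5430076): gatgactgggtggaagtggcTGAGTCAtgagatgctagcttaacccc
Fosl2 (chr5:32146430-32146476): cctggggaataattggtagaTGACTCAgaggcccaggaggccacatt

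The first 4 of these elements were called in every library. The intergenic Jund element, 16.7 kb upstream, measured 11.02, 9.68 and 23.0 CPM in the E12.5, E14.5 and E16.5 libraries, and its AP-1 letters were central in all 3 peaks. The Fosb element, 17.2 kb upstream, measured 23.1, 25.2 and 36.6 CPM, and the Junb element, 6.76 kb upstream, measured 29.2, 31.7 and 38.8 CPM. In an Atf3 intron, 9.97 kb upstream of the main start, the element measured 5.23, 3.90 and 13.6 CPM. The Fosl1 and Fosl2 elements were called at E16.5 only, with 4.90 and 1.89 CPM there. These values are sums over whole merged regions, and in the Fosb, Junb and Atf3 elements the printed letters were central in the E16.5 peak only. Per kb of the bases called in each library, the E16.5 over E12.5 log2 ratio was -0.33 at the Junb element, -0.11 at the Fosb element, -0.0023 at the Jund element and 0.29 at the Atf3 element.

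Regions called in all 3 libraries made up 44 of the 94, or 46.8%, against 33.6% of the regions in the windows of all autosomal protein-coding genes. Those called at E16.5 only made up 31 (33.0% against 27.5%), those called at E12.5 and E16.5 but not E14.5 made up 13 (13.8% against 17.9%), and those called at E12.5 only made up 4 (4.26% against 17.6%). None was private to E14.5 (0.188% of the regions in all windows). Of the 31 regions called at E16.5 only, 15 were intergenic, 13 intronic, 2 exonic and 1 at a promoter (a stretch of 5 bp at Atf3), and their levels were low, from 0.0060 to 5.51 CPM with a median of 1.46.

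The genes differed in how many of their regions were common to the libraries. Fosb had 8 of 11 in all 3 libraries, Junb 8 of 12, Fosl1 7 of 10, Fos 6 of 11, Jund 6 of 11 and Atf3 6 of 16. Jun had 2 of 7 and Fosl2 had 1 of 16, its promoter region. Around Fosl2, which encodes the FRA2 protein, 7 regions were called at E16.5 only and 6 at E12.5 and E16.5 without E14.5. Atf3, which encodes a stress-induced partner of the JUN proteins, also had 7 at E16.5 only. The map of regions by distance from the start shows the Fosl2 gene body lined by regions missing from the E14.5 list.

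**Figure D1:**
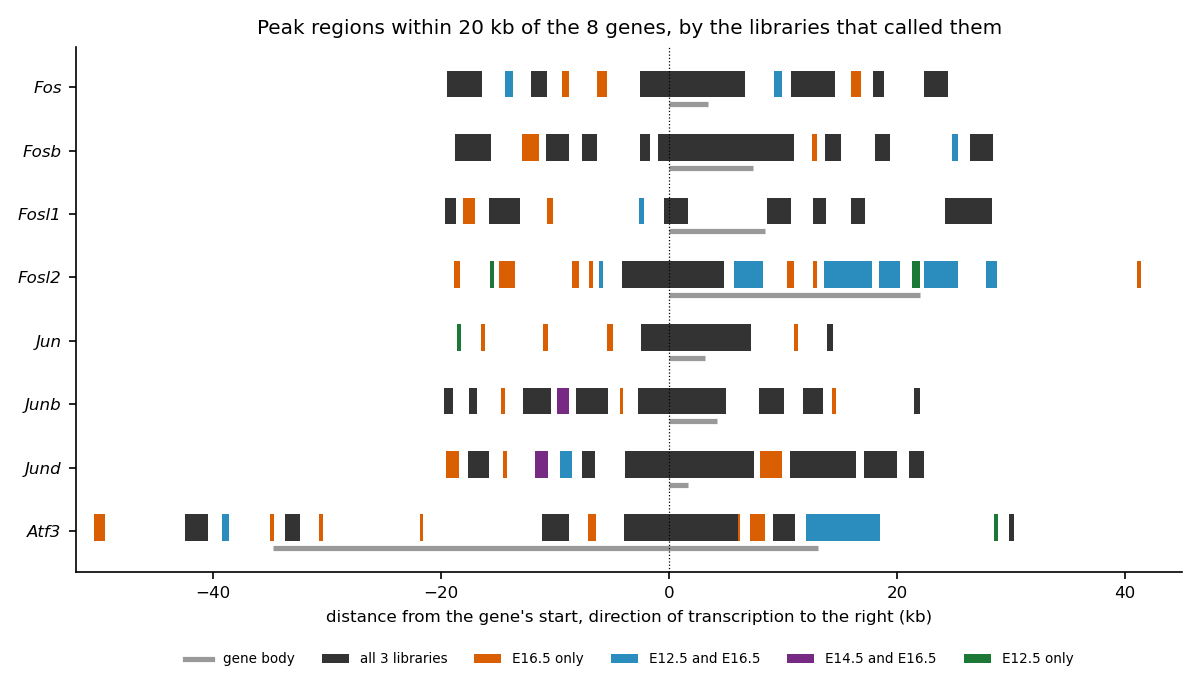
Regions in the window of each gene, placed by distance from the gene's start in kb with transcription to the right, coloured by the libraries that called a peak in them, with the gene body as a grey line (for Atf3 the start inside its main promoter region is used). Each of the 8 genes had a promoter region called in all 3 libraries, and Fosl2 had only that 1 region in common, of 16. Regions narrower than 0.35 kb are drawn at that width.

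The promoters of these genes stood out by breadth. At E16.5 the longest peak at the promoter spanned 9141 bp at Fos, 11894 bp at Fosb, 8953 bp at Fosl2, 9547 bp at Jun, 7716 bp at Junb, 11301 bp at Jund and 9625 bp at Atf3. Fosl1, which encodes FRA1 and is known as a later, AP-1-dependent member, was the exception with 2100 bp, near the median of 2175 bp over 15368 genes. Peaks of at least 5000 bp were thus found at 7 of the 8 promoters at E16.5, where 6.25% of genes had one. At E12.5 they were found at 6 of 8 (3.66% of genes) and at E14.5 at 3 of 8 (1.19% of genes).

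Breadth differed between the libraries, and not only at these genes. The median promoter peak over all genes was 1931 bp in the E12.5 library, 1661 bp in the E14.5 library and 2175 bp in the E16.5 library. At Fosb the longest promoter peak measured 3669, 3482 and 11894 bp, at Fosl2 it measured 5914, 2814 and 8953 bp, and at Jun it measured 6719, 6421 and 9547 bp. At Jund it measured 8301, 5358 and 11301 bp, at Fos 5132, 4908 and 9141 bp, at Atf3 5017, 4803 and 9625 bp and at Junb 5613, 5836 and 7716 bp. The E16.5 peak was the widest at all 8 genes, and the E14.5 peak was the narrowest at all but Junb. The part of depth and of software version in these widths was not tested. Where a promoter was covered by several peaks in one library and a single one in another, this measure is larger without new bases being called. At Fosb the bases called inside the merged promoter region numbered 8825, 7662 and 11894.

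**Figure D2:**
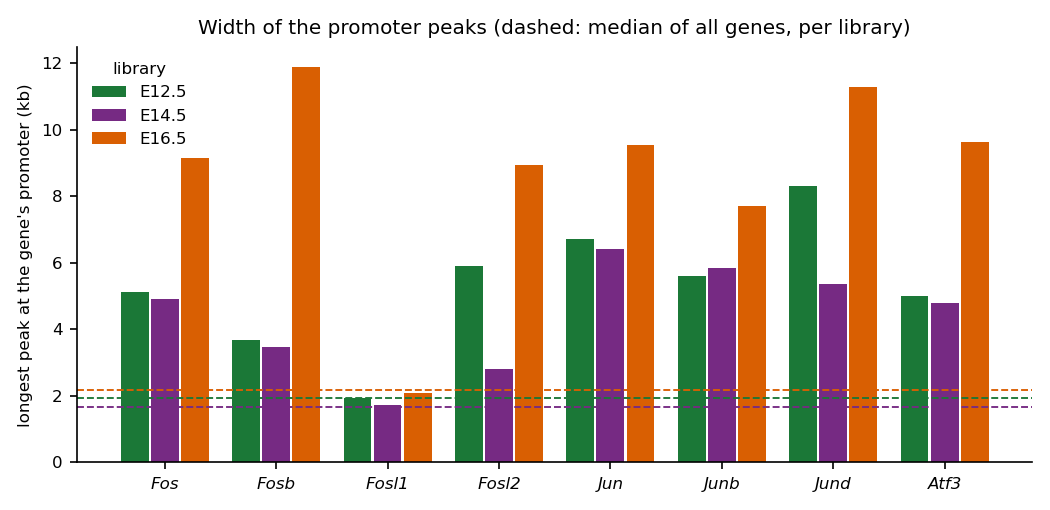
Width of the longest peak at each promoter in kb, by gene, with 1 bar for each library and a dashed line at the median of all genes in that library. Every gene but Fosl1 lay above the median in all 3 libraries, and the E16.5 bar was the tallest at each gene.

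The merged promoter region covered the whole gene at Fos, Fosb, Jun, Junb and Jund, which are short genes of 1668 to 7356 bp. Jun, an intronless gene of 3189 bp, lay at chr4:95049034-95052222 inside a region of 9569 bp, and Fos, at chr12:85473890-85477273, lay inside one of 9197 bp. The region covered 19.9% of Fosl1, 21.8% of Fosl2 and 21.1% of Atf3, which are longer.

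Cut sites were then summed over the merged promoter region. Fos measured 122 CPM at E12.5, 135 CPM at E14.5 and 137 CPM at E16.5. In the same order Fosl2 measured 134, 140 and 135 CPM and Jun 123, 175 and 154 CPM. Among the other JUN and FOS genes, Junb measured 101, 111 and 123 CPM, Jund 101, 145 and 142 CPM and Fosb 95.03, 116 and 124 CPM. The Jund region also holds the promoter of Iqcn, a coding neighbour, and the cut sites of both cannot be told apart. Atf3 measured 74.9, 97.0 and 106 CPM. The sum over the region, which is not scaled to length, put these 7 genes between the percentiles 96.3 and 99.9 of 17431 promoter regions in every library. Fosl1, with 22.6, 25.8 and 22.6 CPM, lay between the percentiles 43.0 and 44.8.

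Per kb of the bases called in the same library, the promoters spread on both sides of the median of all promoters. At E12.5 the order ran from Jun with 17.3 CPM per called kb over Fosl2 with 16.8, Junb with 15.7, Fos with 14.6, Fosl1 with 11.7, Jund with 11.4 and Fosb with 10.8 to Atf3 with 9.78, around a median of 12.1 over all promoter regions. At E16.5 the values ran from 16.2 (Jun) over 15.9 (Junb), 15.1 (Fosl2), 15.0 (Fos), 12.6 (Jund), 11.01 (Atf3) and 10.8 (Fosl1) to 10.4 (Fosb), around a median of 10.9 CPM per called kb. The percentiles of these densities ran from 36.9 (Atf3 at E12.5) to 81.8 (Jun at E14.5). At E16.5 they were 77.5 for Jun, 76.3 for Junb, 72.1 for Fosl2 and 71.6 for Fos, and between 47.3 and 58.9 for the other genes.

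**Figure D3:**
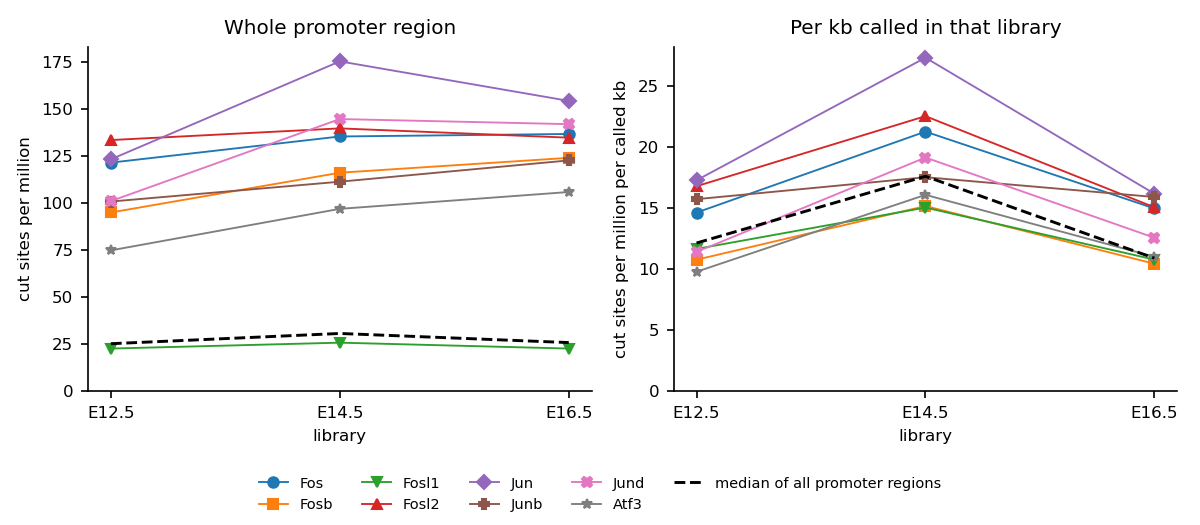
Level of each gene's promoter region in the 3 libraries, as cut sites per 1000000 in the whole region (left) and per kb of the bases called in that library (right), with the median of all promoter regions dashed. On the left all genes but Fosl1, at 22.6 to 25.8, lie far above the median, and on the right they spread around it.

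Stage differences at the promoters were small. From E12.5 to E16.5 the log2 ratio of the promoter region was 0.50 at Atf3 (95% interval 0.44 to 0.56) and 0.49 at Jund (0.44 to 0.54). It was 0.39 at Fosb, 0.32 at Jun, 0.28 at Junb and 0.17 at Fos. Fosl2 had 0.01 (-0.03 to 0.06) and Fosl1 had 0.00 (-0.11 to 0.11). The median of 8 was 0.30, against -0.0025 over the 14466 genes with a common promoter region. No member was past 1.5-fold in any step, where 15% of genes were past it from E12.5 to E14.5, 12.5% from E14.5 to E16.5 and 13% from E12.5 to E16.5.

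Per called kb, the same E12.5 to E16.5 ratios ran from -0.16 at Fosl2 to 0.17 at Atf3 with a median of -0.01, against -0.18 over all promoter regions, and 4 of 8 were above 0. All 8 were above 0 on this scale from E12.5 to E14.5 (median 0.52) and all 8 below 0 from E14.5 to E16.5 (median -0.54). The medians over all promoter regions moved alike, with 0.48 and -0.65. These values are not set against the called width of the common regions as a whole, so 0 does not mark an unchanged promoter. With that width as the reference, the Fosl2 window, which is its promoter region alone, had -0.09 into E14.5 in place of 0.42. The E14.5 library had the narrowest promoter peaks by the median, and 58.7% of its common cut sites lay in promoter regions, against 50.8% at E12.5 and 49.96% at E16.5.

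Over the whole 20 kb windows, Fos measured 305 CPM at E12.5 (95% interval 299 to 311), 290 CPM at E14.5 (287 to 294) and 300 CPM at E16.5 (297 to 302). The E12.5 and E16.5 intervals overlapped, and the log2 ratio between them was -0.03 (-0.06 to 0.00). Fos had the densest window, 6.91 CPM per kb of window at E16.5, above 99.9% of genes. Fosl2 was as level, with 134, 140 and 135 CPM and a ratio of 0.01 (-0.03 to 0.06), all of it from the promoter region. Regions not called in all 3 libraries do not enter these window sums. The 6 Fosl2 regions called at E12.5 and E16.5 without E14.5 had ratios of 0.14 to 2.19, or -0.85 to 0.65 per called kb.

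Fosb measured 198, 230 and 244 CPM in its window, a log2 ratio from E12.5 to E16.5 of 0.30 (0.26 to 0.33). Fosl1 measured 126, 150 and 147 CPM, with a ratio of 0.22 (0.18 to 0.27). Between 62.7% and 70.7% of the cut sites in the Fosl1 window lay in promoter regions of its neighbours, Ccdc85b, Fibp and Efemp2. The Fosl1 window sum is therefore mostly a reading of other genes' promoters.

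Jun, the founding member of its family, measured 125 CPM at E12.5 (121 to 128), 178 CPM at E14.5 (175 to 180) and 156 CPM at E16.5 (154 to 158). Its log2 ratios were 0.51 (0.47 to 0.56) into E14.5 and -0.19 (-0.21 to -0.16) out of it. Over the 14466 genes with a common promoter region, the median promoter ratios in these steps were 0.26 and -0.28. With only promoter regions summed and used as the scale, Jun had 0.30 and 0.05. Fosl1 and Fosl2 were also highest at E14.5, with ratios of -0.03 and -0.05 in the second step. The Jun promoter region held 98.7% to 99.0% of the window's cut sites. Junb, which encodes a JUN protein with weaker activating capacity, measured 223, 248 and 262 CPM, and its E12.5 to E16.5 ratio was 0.24 (0.20 to 0.27). Promoters of its neighbours held 33.6% to 38.3% of the Junb window.

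Jund, expressed in many resting cells, measured 137 CPM at E12.5 (133 to 141), 179 CPM at E14.5 (177 to 182) and 201 CPM at E16.5 (199 to 204). Atf3 measured 116 CPM (112 to 119), 136 CPM (134 to 139) and 168 CPM (166 to 170). These were the largest E12.5 to E16.5 ratios among the members, 0.56 (0.51 to 0.60) for Jund and 0.54 (0.49 to 0.58) for Atf3, at the percentiles 94.3 and 94.0 of all genes. Both moved with called width. The called bases of the Jund window numbered 13279, 11200 and 24277, and per called kb, relative to the common regions as a whole, the ratio was -0.13 for Jund and 0.19 for Atf3. With peaks of matched position alone, the Jund promoter region dropped out and the ratio of -0.76 was that of a single region, 7.07 kb upstream. Without regions of other promoters, which leaves out the region shared with Iqcn, the Jund ratio was 0.76 in place of 0.56 from E12.5 to E16.5, -0.07 in place of 0.39 into E14.5 and 0.83 in place of 0.17 out of it.

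No window was past 1.5-fold in either direction in any step. The background over 17506 genes was 3.23% higher and 6.35% lower from E12.5 to E14.5, 5.33% higher and 3.13% lower from E14.5 to E16.5, and 5.08% higher and 6.84% lower from E12.5 to E16.5. The medians of the 8 log2 ratios were 0.23, 0.06 and 0.27 in these steps, beside 0.12, -0.13 and -0.0049 over all genes. From E12.5 to E16.5, 7 of 8 were above 0, all but Fos.

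Away from promoters, the 26 common regions of the windows varied far more. From E12.5 to E16.5, 10 were more than 1.5-fold higher and 2 more than 1.5-fold lower, where 30.8% and 29.3% of the 65499 common regions outside promoters were. From E12.5 to E14.5 there were 3 higher and 6 lower (19.1% and 39.5% of all), and from E14.5 to E16.5 there were 13 higher and 2 lower (38.1% and 15.1%). The median ratios were -0.26, 0.58 and 0.44, beside -0.36, 0.32 and -0.01 over all such regions.

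Called width moved with these counts, and its part in them was not tested beyond the values per called kb. The median width of the 26 regions was larger by 0.63 on the log2 scale at E16.5 than at E12.5, against 0.13 over all, and per called kb the median ratio was -0.19, against -0.16 over all. On this scale 1 region was past 1.5-fold higher and 6 lower between these stages (16.7% and 26.4% of all), with 9 of 26 above 0. From E12.5 to E14.5 there were 5 higher and 1 lower (34.9% and 5.1% of all), with a median of 0.18 (0.34 over all). From E14.5 to E16.5 there were 0 higher and 10 lower (2.84% and 43.4% of all), with a median of -0.41 (-0.49 over all). The medians as counted and per called kb thus had opposite signs in all 3 steps. Regional values per called kb are not set against the called width of the common regions as a whole. Their 0 therefore does not mark an unchanged region, and the signs alone do not show a reversal. The region 13.5 kb downstream of the Jund start, in Iqcn (chr8:70709557-70715343), had the largest ratio, 2.78 (2.44 to 3.12), with 2.04, 3.67 and 13.97 CPM. Its called bases numbered 894, 768 and 5787, and per called kb it measured 2.28, 4.77 and 2.41 CPM, a log2 ratio of 0.08 between E12.5 and E16.5. The Jund element 16.7 kb upstream whose AP-1 site is printed above had a ratio of 1.06 in all and -0.0023 per called kb.

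Some regions differed on both scales. At Fos, the region 23.4 kb downstream of the start (chr12:85496237-85498334) measured 4.61, 4.11 and 13.3 CPM, with an E16.5 to E12.5 ratio of 1.53 (1.31 to 1.76) and of 0.60 per called kb. A region 18.4 kb downstream (chr12:85491825-85492766) ran the other way, with 17.3, 13.5 and 8.18 CPM. Its ratio was -1.08 (-1.22 to -0.95), and -0.99 per called kb, since its called width was nearly constant at 930, 903 and 874 bp. The Fos window total was therefore level while regions within it went up and down.

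At Jund, a region 7.07 kb upstream (chr8:70691278-70692478) measured 10.1, 9.97 and 5.98 CPM, a ratio of -0.76 (-0.93 to -0.58) and of -0.87 per called kb. An exonic region in Rtn2, 13.9 kb downstream of the Fosb start, measured 14.2, 9.13 and 9.79 CPM, a ratio of -0.54 (-0.68 to -0.39) and of -1.43 per called kb. In the Atf3 intron element with the printed AP-1 site, the ratio was 1.38 (1.16 to 1.59) and 0.29 per called kb. An exonic Atf3 region (chr1:191172308-191174255) had 0.87 (0.62 to 1.12) in all and -1.02 per called kb, so that its direction depended on the scale.

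**Figure D4:**
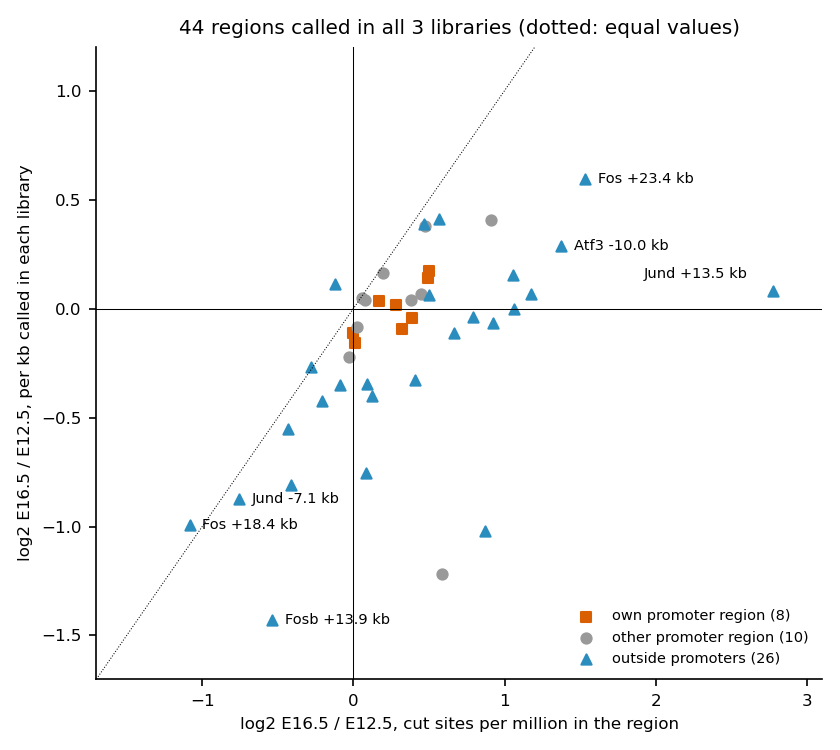
Log2 ratio of E16.5 over E12.5 for the 44 regions called in all 3 libraries, as counted (horizontal) and per kb of the bases called in each library (vertical), with regions below the dotted line wider at E16.5. Own promoters cluster near 0 on the vertical axis, between -0.16 and 0.17, while regions outside promoters spread from -1.43 to 0.60.

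The 13 regions called at E12.5 and E16.5 but not at E14.5 were all higher and all wider at E16.5, with ratios as counted from 0.14 to 3.19 and a median of 1.24. Of the 31199 such regions with a value in the windows of all genes, 52.3% were higher, with a median of 0.07, and 58.3% of the regions of this class were wider. Per called kb the median was 0.08 at the members and -0.12 over all. The highest ratio belonged to a region over the 3' part of Atf3 and the promoter of Fam71a (chr1:191164826-191171327), with 1.69 CPM on 648 called bp at E12.5 and 15.4 CPM on 6502 bp at E16.5. Per called kb it measured 2.61 and 2.37 CPM. The AP-1 element 4.19 kb upstream of the far Atf3 start (chr1:191221913-191222550) had the largest ratio of these 13 per called kb, 0.97, with 1.43 and 4.31 CPM.

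Beyond these loci, the letters bound by AP-1 were unevenly shared among peaks outside promoters. They stood in 21.0% of the E12.5 peaks in regions called at E12.5 and E16.5 but not E14.5 (9098 of 43348, 95% exact binomial interval 20.6 to 21.4) and in 19.3% of peaks private to E16.5 (13401 of 69353, 19.0 to 19.6). They stood in 11.4% of peaks private to E12.5 (11.1 to 11.7), in 9.20% of the E14.5 peaks of regions called everywhere (8.98 to 9.41) and in 5.70% of the E14.5 peaks shared with E16.5 alone (5.18 to 6.26). Of these classes, the ones missing from the E14.5 list and present at E16.5 held the letters most often, and regions called at E14.5 only or at E12.5 and E14.5 only were not read. Counting only letters inside the called peak, these shares were 19.2%, 17.1%, 9.41%, 8.37% and 4.66% in the same order.

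**Figure D5:**
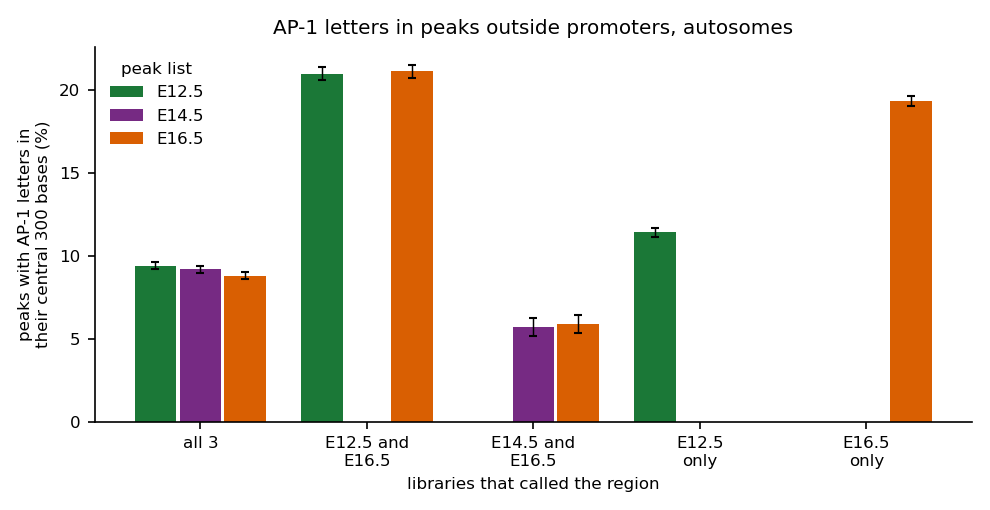
Percent of autosomal peaks outside promoters with AP-1 letters in their central 300 bases, by the libraries that called the region and by the library whose peak was read, with 95% exact binomial intervals that cover counting error only. Peaks shared by E12.5 and E16.5 reach 21.0% and 21.1%, and those shared by E14.5 and E16.5 reach 5.70% and 5.87%.

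The share of nuclei with a count at each promoter was also taken. The share expected if each nucleus were thinned to 1074 fragments was computed, which left out 2071, 0 and 252 shallower nuclei. At the Jun promoter this expected share was 11.3% of E12.5 nuclei (95% exact interval on the rounded expected number of nuclei, 10.5 to 12.1), 16.4% of E14.5 nuclei (15.9 to 16.9) and 15.3% of E16.5 nuclei (14.7 to 15.9), the order of its pooled levels. Jund had 8.24%, 13.2% and 14.2%, and Fosb had 8.44%, 10.8% and 12.2%. Jund was highest at E16.5 by this share and at E14.5 by its pooled promoter level, as was Fosl2. For Fos the shares were 10.9%, 12.5% and 13.5%, for Fosl2 11.9%, 13.03% and 13.5%, for Junb 9.14%, 10.3% and 12.2% and for Atf3 7.05%, 9.14% and 10.6%. The median promoter had 3.08%, 3.97% and 3.42%, and Fosl1 had 2.12%, 2.47% and 2.42%. Without thinning the Jun shares were 29.0%, 49.3% and 71.0%, in order of depth, with median depths of 6003.5, 8575 and 26694 cut sites in peaks per nucleus. A wide promoter has more bases at which a fragment can fall, so that these shares are not comparable per length between genes.

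The loci were also compared between nuclei with many counts at lineage genes and the rest. Gates took the top 10% of nuclei by their share of counts at chondrogenic, tenogenic, fibrogenic or dermal fibrogenic loci, which is a range of a score and not a cell type. Nuclei under 2000 cut sites in the common autosomal regions were left out, and nuclei in the gates had lower median depth than the rest. Whether that depth plays a part was not tested. Most differences were small. The median over the 8 genes lay between -0.18 and 0.14 on the log2 scale in the 12 gates. The E16.5 chondrogenic gate held 1384 nuclei, and 565 nuclei inside or outside it had scores within 10% of the threshold. In this gate the Fosb window measured 313 CPM against 238 in the rest, a log2 difference of 0.40 (0.35 to 0.44). Fos measured 354 against 295 CPM there, or 0.26 (0.21 to 0.31). The differences of Fosb and Fos lay at the percentiles 90.7 and 80.4 of all genes, whose median was 0.084. Jun had 0.19, Jund 0.18, Fosl2 0.10, Junb 0.02, Fosl1 -0.05 and Atf3 -0.11 there.

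In the E16.5 tenogenic gate Atf3 measured 135 CPM against 170 CPM, a difference of -0.34 (-0.41 to -0.27), at the percentile 4.63 of all genes. The other members lay between -0.13 and 0.03 in that gate. In the E12.5 fibrogenic gate (633 nuclei) the members ran from -0.45 at Fosb and -0.34 at Jund to 0.10 at Atf3 and 0.11 at Fosl2, beside a 5th and a 95th percentile of all genes of -0.42 and 0.35. In the E14.5 library all 8 were above 0 in the dermal fibrogenic gate, at 0.01 to 0.12 (median of all genes 0.0089), and all 8 were below 0 in the chondrogenic gate, at -0.18 to -0.03 (-0.0078), and in the fibrogenic gate, at -0.20 to -0.04 (-0.041). Their percentiles among all genes ran from 50.2 to 83.8, from 9.73 to 42.2 and from 8.85 to 49.0 in the same order. Some intervals spanned 0, such as -0.08 to 0.10 at Fosl1 and -0.03 to 0.10 at Fos in the dermal fibrogenic gate. The tenogenic gate ran from -0.08 at Jund to 0.03 at Fosl1 (-0.020).

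Other genes of the response were read in the same way. Of 29 further immediate early and stress genes, 24 had a window ratio above 0 from E12.5 to E16.5, with a median of 0.24, and 3 were past 1.5-fold higher and 0 lower (5.08% and 6.84% of all genes, whose median was -0.0049). These were Klf2, a factor induced by flow and growth arrest, with 74.8, 94.7 and 121 CPM and a log2 ratio of 0.69, Dusp1, a phosphatase that switches off MAP kinases, with 144, 164 and 220 CPM and 0.61, and Cebpb with 0.60. Per called kb, relative to the common regions as a whole, Klf2 had -0.34, Dusp1 0.05 and Cebpb 0.03, and 16 of the 29 were above 0 from E12.5 to E16.5, with a median of 0.02 and 0 past 1.5-fold (1.93% of all genes higher and 3.12% lower). As counted, Egr1, the zinc finger gene most often induced beside Fos, had 0.10, and Gadd45g had the lowest value, -0.24 (0.09 and 0.02 per called kb). In each single step, as counted, 0 of the 29 were past 1.5-fold and 21 were above 0. The medians were 0.20 and 0.07, beside 0.12 and -0.13 over all genes. Ratios ran from -0.25 at Gadd45g to 0.48 at Cebpd into E14.5 and from -0.28 at Egr2 to 0.55 at Klf6 into E16.5. Per called kb 19 and 12 were above 0, with medians of 0.07 and -0.07. On that scale 1 was past 1.5-fold lower, Rhob out of E14.5 with -0.59, where 1.31% of all genes were. Per called kb Gadd45g had -0.38 and Cebpd 0.46 into E14.5, and Egr2 had 0.04 and Klf6 -0.11 into E16.5.

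Relatives with the same basic leucine zipper had a median of 0.04 from E12.5 to E16.5 over 21 of 22 genes with a value, none past 1.5-fold, from -0.49 at Bach2, a repressor, to 0.40 at Atf1. Only Jdp2, which encodes a partner of JUN, was past 1.5-fold in any step, at 0.61 from E12.5 to E14.5, where Bach2 was lowest with -0.57. Over all genes 3.23% were past 1.5-fold higher in that step, and per called kb Jdp2 and Bach2 both had -0.21. In the next step the relatives ran from -0.42 at Jdp2 to 0.29 at Batf (-0.08 and 0.39 per called kb). Kinases and factors upstream of AP-1 had a median of -0.06 over 14 genes. They ran from -0.35 at Mapk8, the kinase JNK1 that phosphorylates JUN, to 0.49 at Mrtfa, a coactivator of serum response factor. Into E14.5 they ran from -0.39 at Mapk14, the kinase p38, to 0.56 at Map2k4, which activates JNK, and into E16.5 from -0.45 at Mapk8 to 0.44 at Mrtfa. Per called kb Mapk14 had 0.08 and Map2k4 0.20 into E14.5, and Mapk8 had -0.31 and Mrtfa 0.07 into E16.5. Srf itself had -0.22 between E12.5 and E16.5 (-0.05 per called kb), and none of these genes was past 1.5-fold in any step. Over all genes, 3.13% to 6.84% were past it in each direction and step. Per called kb the E12.5 to E16.5 medians were -0.08 for the relatives and -0.03 for the kinases and factors. None of these genes was past 1.5-fold in any step on this scale, where 1.11% to 3.16% of all genes were in each direction.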

How the data were processed

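Single-nucleus ATAC-seq had been done by the authors on 3 libraries of sorted tdTomato+ MPs. The deposited values are counts of transposase cut sites per peak and nucleus, not normalised, with mm10 peaks called in each library alone by Cell Ranger ATAC (1.1.0 in the submitters' processing notes, beside bcl2fastq, and in the file headers 1.0.1 for the first 2 stages and 1.2.0 for the last). The peak lists, deposited as start and end positions, carry no scores, and barcodes name nuclei.

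All nuclei were used, and no doublet caller was run. Overlapping peaks were merged, and a region counted as common where every library called it. CPM summed a library's own peaks in common regions per 1000000 cut sites in autosomal common regions, which made up between 80.4% and 96.0% of a library's total. A region's count therefore covers only the bases called in that library, so values per called kb are given for promoters, regions, the largest window ratios and the lists. Promoters ran from 1000 bp before to 100 bp after a GENCODE start (vM21 basic). Intervals are 95% exact Poisson or exact conditional binomial (ratios), on cut sites divided by 2 and rounded up, or Clopper-Pearson (shares). Those of the thinned shares rest on the expected number of nuclei, rounded. The computation of ratios and intervals was checked on simulated counts. Sequences came from RefSeq's GRCm38.p6. Python 3.11.15, numpy 2.4.6, pandas 2.3.3, scipy 1.17.1 and matplotlib 3.10.9 were used.

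The 8 genes and the lists were chosen with earlier results of these data known. The named genes are the 8 members and, within each list, the largest rise and fall in each step. Dusp1, Cebpb, Egr1, Rhob, Srf and the regions named by position were chosen after their values were seen, as were the 500-base promoter window, the count of letters inside peaks and 4 of 17 alternatives. Another list of marker genes is not reported here.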

Additional observations from a re-analysis of the deposited data

How the results depend on the processing

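With 1 library per stage, no replicate could be left out, and no paired analysis was possible because each stage had a single library. The median log2 ratio of the 8 windows, printed as 0.23 (E12.5 to E14.5), 0.06 (E14.5 to E16.5) and 0.27 (E12.5 to E16.5), was recomputed under 13 planned and 4 added alternatives.

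From E12.5 to E14.5 it moved beyond counting error to 0.40 (all autosomal peaks as the scale), 0.11 (median ratio over genes), 0.38 (all of each library's peaks), -0.000356 (per called kb, relative to the common regions as a whole), 0.083 (without other promoters), 0.13 (50 kb windows), 0.14 (without the own promoter), -0.066 (outside all promoters) and 0.12 (promoters scaled to promoters). The all-gene median moved too, from 0.12 as reported to 0.29 with all peaks as the scale, -0.0026 by the median ratio and -0.34 outside all promoters. The members' median lay above it in every setting but the own promoter only, with 0.24 against 0.26.

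From E14.5 to E16.5, in the same order of settings where they moved it, it was -0.19 (all peaks as the scale), 0.19 (median ratio), -0.13 (all peaks summed), 0.0078 (matched positions), 0.14 (without other promoters), -0.0066 (own promoter, and gene body with 2 kb), 0.0034 (10 kb), -0.15 (binarised), 0.25 (shallower nuclei), 0.30 (outside all promoters), 0.24 (promoters scaled to promoters) and 0.024 (other regions scaled to other regions). The all-gene median was -0.13 as reported and -0.39 with all peaks as the scale, so that this scale moved all genes alike. The members' median lay above that of all genes in every setting but binarised counts, outside all promoters and other regions scaled to each other.

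From E12.5 to E16.5 every alternative kept it above 0: 0.19 (all peaks as the scale), 0.040 (per called kb), 0.30 (own promoter, and gene body with 2 kb), 0.17 (50 kb), 0.021 (binarised), 0.31 (without the deepest 5% of nuclei), 0.52 (shallower nuclei), 0.50 (outside all promoters) and 0.48 (other regions scaled to other regions).

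Of members past 1.5-fold, 0 in each step as reported, from E12.5 to E14.5 there was 1 higher with all peaks as the scale, all peaks summed, without the own promoter, outside all promoters (where 1 was also lower) and with other regions scaled to each other, and 2 in shallower nuclei. From E14.5 to E16.5 there was 1 higher without other promoters and with other regions scaled to each other, 2 without the own promoter and 3 outside all promoters, and 1 lower with matched positions, binarised counts and other regions scaled to each other. From E12.5 to E16.5 there were 2 higher with all peaks summed, without the deepest nuclei, in shallower nuclei, without the own promoter, outside all promoters and with other regions scaled to each other, and 1 without other promoters, and 1 lower (Jund, -0.76) with matched positions, where a single Jund region was left, without the promoter. Under the alternatives with such a member, 4.58% to 11.3% of all genes were past 1.5-fold higher and 32.6% lower in the first step, 12.3% to 32.9% higher and 2.05% to 10.02% lower in the second, and 5.44% to 19.1% higher and 6.96% lower from E12.5 to E16.5.

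Jun from E12.5 to E14.5, and Atf3 and Junb from E12.5 to E16.5, kept their direction in all 17 alternatives, and Jund from E12.5 to E16.5 in 15. The Jun ratio of that step was lowest per called kb, at 0.14. Others were less stable: Fos kept its direction in 11 (E12.5 to E14.5), 12 (E14.5 to E16.5) and 10 (E12.5 to E16.5). From E14.5 to E16.5, Fosl1 kept it in 10, Jund in 11 and Fosl2 in 7 of 13. The median share of nuclei with a count was 8.79%, 11.7% and 12.9% after thinning and 24.7%, 40.1% and 65.9% without it. A chondrogenic gate at the top 5% moved the E12.5 median from -0.08 to -0.30, one at the top 20% moved the E16.5 median from 0.14 to 0.063, and a fibrogenic gate at the top 5% moved the E16.5 median from -0.07 to -0.000482. The causes of these moves were not tested. E12.5 nuclei were the shallowest.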

Other observations

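Common regions outside promoters with and without AP-1 letters had different medians. The 9290 autosomal regions with the letters in the central 300 bases of a peak had a median log2 ratio of -0.56 from E12.5 to E14.5 and of 0.74 from E14.5 to E16.5, against -0.33 and 0.26 in the 56209 regions without them. Per called kb the medians were 0.26 and -0.33 with the letters and 0.35 and -0.52 without. The difference between both kinds of region was thus in the same direction on both scales, lower into E14.5 and higher out of it. Between E12.5 and E16.5 they were 0.19 with and -0.04 without, or -0.06 and -0.18 per called kb. For the CRE, found in 490 regions, the medians of the first 2 steps were -0.37 and 0.37 (0.37 and -0.48 per called kb), and for the CArG box, found in 1755, they were -0.34 and 0.35 (0.41 and -0.54). The regions without the CRE, and those without the CArG box, had -0.36 and 0.32 (0.34 and -0.49 without the CRE, 0.33 and -0.49 without the CArG box). These are descriptions of 3 libraries, and the parts of depth, peak calling and digestion were not tested.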
